A study of Homo sapiens with 5 samples.

Results

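The genes described here are 39 genes for interleukins, chemokines and related cytokines of the secretory phenotype that can accompany senescence. They were chosen as a named list of cytokine genes and not by their level, and they are 39 of the 40263 genes listed in the count tables of the series. Expression was measured by RNA sequencing in 501Mel, a human melanoma line, and in Hermes 3A, an immortalised human melanocyte line. Both lines had been infected to express a short hairpin RNA against BPTF (shBPTF), the largest subunit of the NURF chromatin-remodelling complex, and selected with puromycin. The 501Mel shBPTF group held 2 libraries and the Hermes 3A shBPTF group held 3. Control-hairpin libraries were not analysed here, so every difference below is a difference between the 2 shBPTF lines and not an effect of the knockdown. Hermes 3A cells were grown in medium with TPA, cholera toxin, stem cell factor and endothelin-1, and 501Mel cells in serum-containing medium without them, so line and medium cannot be told apart. Each group is a single cell line, and the labels do not say whether its libraries came from separate cultures, so a p-value measures the spread between these libraries only.

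Interleukins and chemokines are small secreted proteins that carry signals between cells. Interleukins act mostly through cytokine receptors that signal to JAK kinases and STAT factors, whereas chemokines bind G protein-coupled receptors and attract leukocytes. Many of their genes are switched on by NF-kB, AP-1 and C/EBP factors after stress, infection or entry into senescence, and several melanoma lines are known to secrete CXCL8 and CXCL1.

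The 6 CXC chemokine genes of the list in the chromosome 4 cluster and IL6 are shown first. They are among the classical NF-kB targets of this list and differed widely in level. For each, the 140 bases before the RefSeq start are printed 5′ to 3′ on the strand of the gene (RefSeq, GRCh38.p14), with capitals for a match to the NF-kB letters GGANNTTCC or the AP-1 letters TGANTCA.
CXCL8 (chr4:73740429-73740568, plus strand): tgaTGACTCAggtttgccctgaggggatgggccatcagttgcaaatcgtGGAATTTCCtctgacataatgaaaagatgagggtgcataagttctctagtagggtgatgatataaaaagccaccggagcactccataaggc
CXCL1 (chr4:73869253-73869392, plus strand): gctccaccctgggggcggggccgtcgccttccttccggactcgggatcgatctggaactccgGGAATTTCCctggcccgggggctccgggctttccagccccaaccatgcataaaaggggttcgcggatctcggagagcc
CXCL2 (chr4:74099196-74099335, minus strand): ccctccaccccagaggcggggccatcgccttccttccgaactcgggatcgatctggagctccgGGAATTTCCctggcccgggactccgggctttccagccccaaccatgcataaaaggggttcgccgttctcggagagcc
CXCL3 (chr4:74038690-74038829, minus strand): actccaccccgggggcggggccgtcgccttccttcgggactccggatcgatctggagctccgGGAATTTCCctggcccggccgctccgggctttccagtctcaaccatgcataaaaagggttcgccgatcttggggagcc
CXCL5 (chr4:73998678-73998817, minus strand): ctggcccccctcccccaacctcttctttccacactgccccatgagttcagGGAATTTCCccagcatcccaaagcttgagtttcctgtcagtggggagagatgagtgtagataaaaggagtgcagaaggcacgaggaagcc
CXCL6 (chr4:73836538-73836677, plus strand): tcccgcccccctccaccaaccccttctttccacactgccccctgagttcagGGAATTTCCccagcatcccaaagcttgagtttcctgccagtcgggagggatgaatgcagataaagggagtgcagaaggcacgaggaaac
IL6 (chr7:22727060-22727199, plus strand): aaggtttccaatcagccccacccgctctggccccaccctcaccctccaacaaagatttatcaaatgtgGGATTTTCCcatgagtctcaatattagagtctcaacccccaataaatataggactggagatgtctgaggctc
The 7 stretches each held an NF-kB match, which lay 72 to 91 bases before the start, and the CXCL8 stretch held an AP-1 match as well. CXCL1, CXCL2 and CXCL3 were the same at 87.9% to 91.4% of the 140 bases, and CXCL5 and CXCL6 at 90.0%. CXCL8 shared at most 47.1% with any of the others.

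RefSeq windows from 250 bases before to 50 after a start were found for 30 of the 39 genes, in 41 windows. The NF-kB letters, searched on both strands, were present in 29.3% of these 41 windows and in 4.57% of all 35116 windows. The genes that held them were CSF2, CXCL1, CXCL2, CXCL3, CXCL5, CXCL6, CXCL8, CXCL10, CXCL11, IL6, IL32 and TSLP. These 12 genes include both strongly and barely detected ones. Windows of the other genes of the list held no such match, among them those of TNF, IL1B and CCL20, and CCL2 was without a window. The search used a single fixed pattern, so the lack of a match does not show that a window lacks an NF-kB site. The AP-1 letters were in 8 of the 41 windows, from 7 genes, against 7.71% of all windows. The C/EBP letters TTGCNNAA were in 6, against 10.5%. The windows are not independent. Those of IL1A overlap, and the promoters of CXCL1, CXCL2 and CXCL3, and of CXCL5 and CXCL6, are much alike. The E-box letters CANGTG, which MITF and many other factors can bind, were in 15 of the 41 windows (36.6%) against 42.0% of all.

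The libraries held 37856675 to 43032311 counts in 501Mel and 30073071 to 41653084 in Hermes 3A. Levels are given in counts or in CPM, a scale on which each library sums to 1000000, and 3 counts corresponded to 0.0697 to 0.0998 CPM. BPTF itself, the targeted gene, was at 57.8 and 65.8 CPM in 501Mel and at 45.8 to 54.1 CPM in Hermes 3A, and no untargeted library was at hand to judge the knockdown. The 7 melanocyte lineage markers examined were above 1 CPM in both lines, so the melanocytic lineage was borne out in each. These markers do not tell a melanoma line from a melanocyte line. Hermes 3A replicate 1 stood apart from replicates 2 and 3, with log-CPM correlations of 0.972 and 0.976 against 0.987 between the other two.

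Of the 39 genes, 37 were matched to the tables by Ensembl identifier, and CCL3 and CCL5 have no value here. The tables list 33 of them for both lines, CSF2 and CSF3 for 501Mel only and CCL7 and CCL8 for Hermes 3A only. A gene not listed for a line has no value there, which does not show it to be absent. A mean of at least 1 CPM was reached by 7 genes in 501Mel and by 11 in Hermes 3A, and a mean of at least 10 CPM by 2 and 7. For 14 genes no library of either line reached 10 counts. The list thus ran from genes with at most 1 count in a library, such as TNF, to IL24 with up to 3357.

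Summed over the matched genes, the list made up 80.8 and 88.4 CPM in 501Mel and 229 to 304 CPM in Hermes 3A. IL16 alone took 44.1% and 54.2% of these counts in 501Mel and MIF 23.3% and 25.9%, while in Hermes 3A their shares were 5.71% to 19.7% and 10.9% to 12.0%. Without IL16 and MIF the sums were 16.1 and 28.8 CPM in 501Mel and 157 to 250 CPM in Hermes 3A, so the sums of the lines did not overlap either way.

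Compared per length, as CPM per kb of the median coding transcript, MIF stood highest in 501Mel (mean 22.1), followed by IL16 (10.4), CCL2 (6.09), CXCL8 (4.18) and IL24 (2.89). In Hermes 3A the order began with IL24 (43.2), MIF (33.8), CXCL1 (21.7), CSF1 (18.5), CCL28 (17.2) and CXCL16 (9.18), and IL16 and CXCL8 came next at 7.88 and 7.61. Neighbours in this order lay close: CSF1 and CCL28 exchanged places when length was taken over all annotated exons, as did IL16 and CXCL8. In 501Mel the same change of length put IL24 (2.43 CPM per kb of exon) above CCL2 (2.27) and CXCL8 (2.21), so these 3 had no firm order. IL24 and MIF in Hermes 3A could not be ordered either, since IL24 ranged from 34.8 to 99.8 CPM between replicates.

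**Figure D1:**
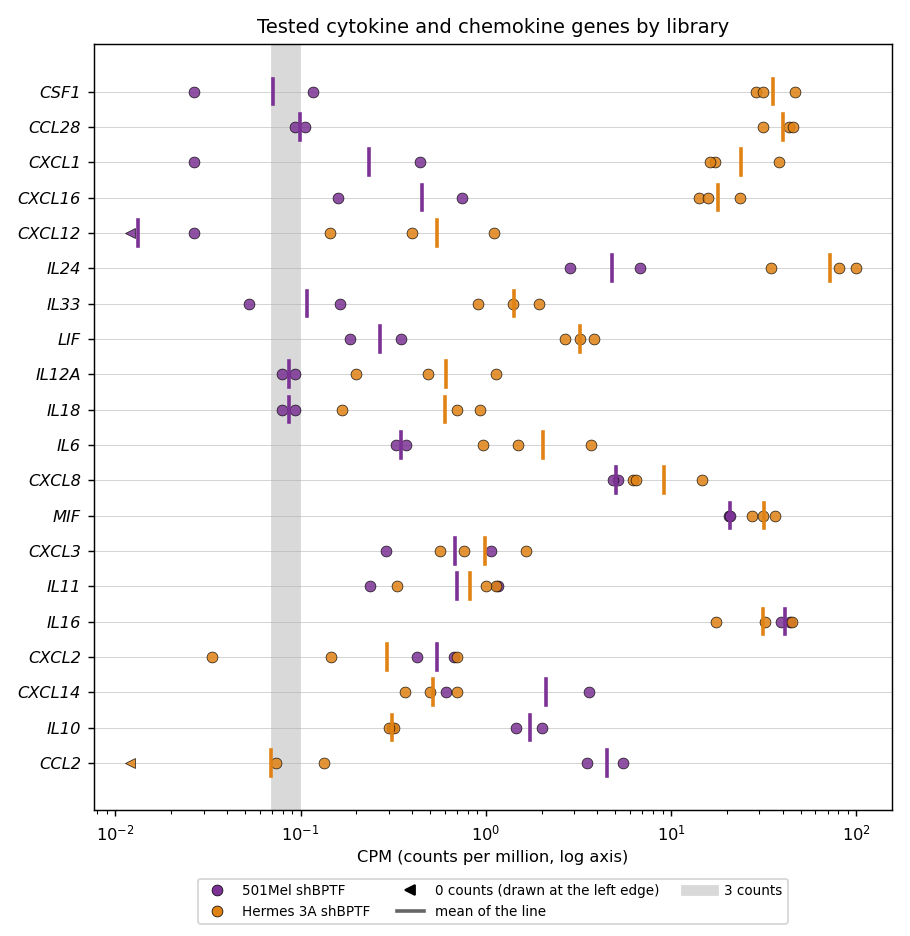
CPM (log axis) of the 20 tested genes in each library, 501Mel in purple and Hermes 3A in orange, with vertical bars for the mean of each line and a grey band for 3 counts. CSF1, CCL28, CXCL1 and CXCL16 are at 0.0264 to 0.744 CPM in 501Mel and above 14 CPM in Hermes 3A, whereas IL16, MIF and CXCL8 are abundant in both lines.

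After a filter on low counts, 20 of the 39 genes could be tested between the lines with edgeR's quasi-likelihood test, and a call needed both a 2-fold change and an adjusted p of 0.05 (Benjamini-Hochberg, over the 17918 genes tested). Of the 39 genes, 13 were called, 11 of them higher in Hermes 3A and 2 higher in 501Mel. Over all genes tested, 34.3% were called, 17.1% higher in Hermes 3A and 17.2% higher in 501Mel. With no limit on the fold, 14 of the 20 tested passed, where 48.4% of all genes tested did. The CPM values of the lines did not overlap for 15 of the 20, where 69.9% of all genes tested did not. Per gene tested, 13 of 20 (65.0%) were called. These shares are given as a description only: 19 of the 39 could not be tested, and the 20 are not a fair sample of the list, because a gene at the limit in one line passed the filter only where it was high in the other. The genes called higher in Hermes 3A were CSF1, CCL28, CXCL1, CXCL16, CXCL12, IL24, IL33, LIF, IL12A, IL18 and IL6, and those called higher in 501Mel were CCL2 and IL10. Values below are log2 fold changes of Hermes 3A over 501Mel, each with its standard error (SE), its 95% interval and edgeR's adjusted p.

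**Figure D2:**
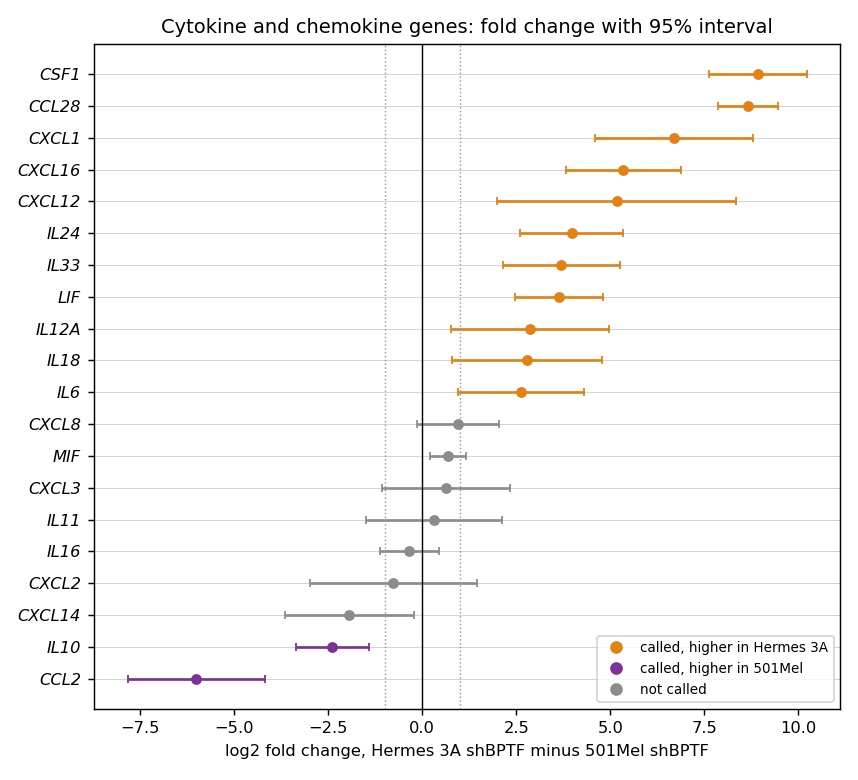
Fitted log2 fold change (Hermes 3A shBPTF minus 501Mel shBPTF) of the 20 tested genes with 95% intervals, coloured by call, with dotted lines at 2-fold. The 11 genes called higher in Hermes 3A run from 2.64 for IL6 to 8.93 for CSF1, and CCL2 at −6.01 and IL10 at −2.40 are the 2 genes called higher in 501Mel.

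The 6 genes of the list in the chromosome 4 cluster code for chemokines that bind CXCR1 or CXCR2 and attract neutrophils. CXCL1, first described as a growth-stimulating activity of melanoma cells, had 19 and 1 counts in the 501Mel libraries and 1589, 704 and 487 in the Hermes 3A libraries. These are 0.442 and 0.0264 CPM against 38.1, 17.2 and 16.2 CPM. Every Hermes 3A library was far above both 501Mel libraries, although the 501Mel values themselves lay 16.7-fold apart. The fitted change was 6.69 (SE 0.89, interval 4.59 to 8.79, adjusted p = 0.00111), and it was 9.72 without 501Mel replicate 1 and 5.86 without 501Mel replicate 2.

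CXCL8, the gene for interleukin 8, stood out from CXCL1 in being well expressed in both lines. It had 222 and 185 counts in 501Mel (5.16 and 4.89 CPM) and 614, 256 and 194 in Hermes 3A (14.7, 6.26 and 6.45 CPM). The lines did not overlap, but 2 of the 3 Hermes 3A libraries lay close above the 501Mel level. The fold change of 0.95 (SE 0.46) had an interval of −0.13 to 2.03 and an adjusted p of 0.127 and was not called, and without Hermes 3A replicate 1 it was 0.39.

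CXCL2 and CXCL3, the closest relatives of CXCL1, were low in both lines. CXCL2 had 29 and 16 counts in 501Mel and 29, 6 and 1 in Hermes 3A, and CXCL3 had 46 and 11 against 69, 23 and 23. Both genes overlapped between the lines and neither was called, at −0.77 (SE 0.94, interval −2.98 to 1.45, adjusted p = 0.531) for CXCL2 and 0.63 (SE 0.72, interval −1.06 to 2.33, adjusted p = 0.497) for CXCL3. CXCL3 was 1.84 without 501Mel replicate 1 and 0.01 without 501Mel replicate 2 or Hermes 3A replicate 1, not called in any of these. CXCL2 was called lower in Hermes 3A when Hermes 3A replicate 1 was left out (−2.43, adjusted p = 0.0267). CXCL5 reached 7 counts in Hermes 3A replicate 1 and at most 1 elsewhere, and CXCL6 had 2 counts in 501Mel replicate 1 and 0 in the 4 other libraries. Within 1 cluster, then, CXCL1 differed 103-fold in the fit while CXCL2 and CXCL3, whose promoter stretches are printed beside it, had at most 69 counts in any library.

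Reads can be shared between these relatives. Of the 50-base stretches of the CXCL1, CXCL2 and CXCL3 transcripts, 5.73%, 9.24% and 5.26% occurred in another of the 3, and none occurred in CXCL5, CXCL6 or CXCL8. These shares do not bound the uncertainty of the low CXCL2 and CXCL3 counts. CXCL1 had 1589, 704 and 487 counts in Hermes 3A, against 29, 6 and 1 for CXCL2. A small part of the CXCL1 reads could therefore equal or exceed the CXCL2 counts there. How the authors' counting treated such reads is not given in the sources used here. With the 3 genes summed to 1, the number of genes called remained 13.

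**Figure D3:**
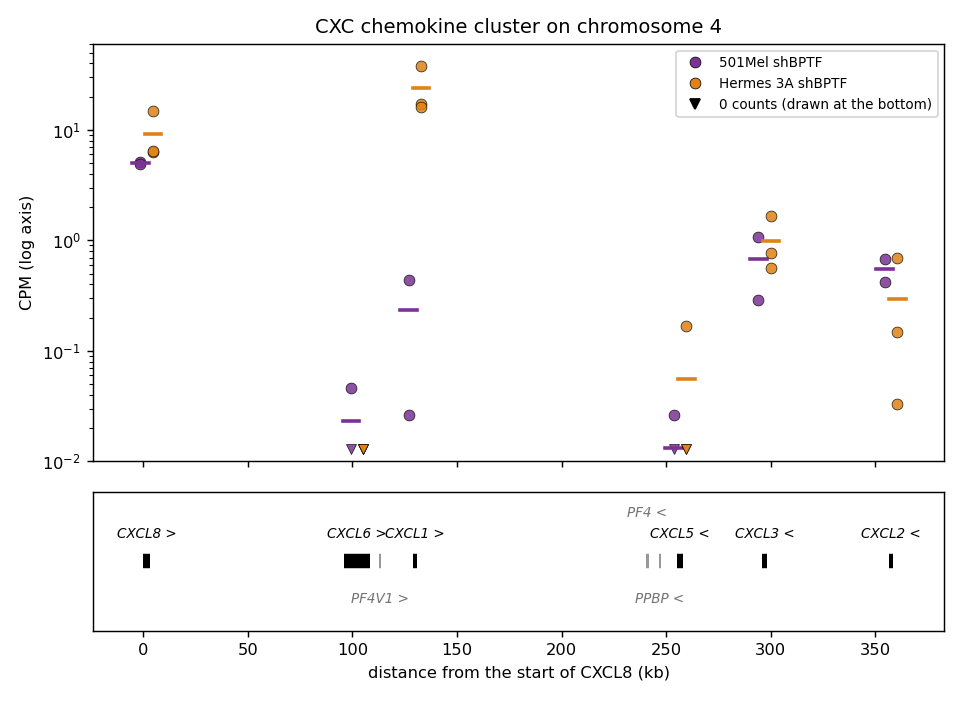
CPM (log axis) of the 6 CXC chemokine genes of the list in each library, above a map of the cluster in kb from the start of CXCL8 (GENCODE 29, GRCh38), with > or < for the strand and grey for genes outside the list. CXCL1, 129 kb from CXCL8, is at 16.2 to 38.1 CPM in Hermes 3A and at most 0.442 CPM in 501Mel, CXCL8 is at 4.89 CPM or more in every library, and CXCL5 and CXCL6 are at or near 0.

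Among the other CXC genes, CXCL16 is made as a membrane-bound chemokine that can be shed and binds CXCR6. It had 32 and 6 counts in 501Mel and 985, 576 and 475 in Hermes 3A, or 0.744 and 0.158 CPM against 23.6, 14.1 and 15.8 CPM. The groups were widely separated, with a fold change of 5.35 (SE 0.65, interval 3.83 to 6.88, adjusted p = 0.00075). It was 6.85 without 501Mel replicate 1 and 4.68 without 501Mel replicate 2.

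CXCL12, the ligand of CXCR4, was scarce in both lines. It had 0 and 1 counts in 501Mel and 6, 45 and 12 in Hermes 3A. The pooled counts gave a ratio of 45.3 with a 95% counting interval of 7.83 to 1816, which covers counting error only. It was called (5.17, SE 1.35, interval 2.00 to 8.35, adjusted p = 0.0168), but without 501Mel replicate 1 the fold change was 4.25 (adjusted p = 0.105) and without 501Mel replicate 2 it was 7.43 (adjusted p = 0.0503).

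CXCL14, a chemokine of normal epithelia, depended on 1 library. It had 156 and 23 counts in 501Mel and 29, 15 and 15 in Hermes 3A, so that only 501Mel replicate 1, at 3.63 CPM, stood clear of the rest at 0.367 to 0.696 CPM. Its fold change of −1.93 (SE 0.73, interval −3.66 to −0.21, adjusted p = 0.0633) was not called. It was −0.15 without 501Mel replicate 1 and −2.69 (adjusted p = 0.0113) without 501Mel replicate 2. The interferon-induced CXCL10 and CXCL11 had at most 4 counts in any library, and the membrane-bound chemokine CX3CL1 had 6 and 9 counts in 501Mel and 7, 14 and 1 in Hermes 3A.

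The CC chemokines split in opposite directions. CCL28, a mucosal chemokine that binds CCR10 and CCR3, had 4 counts in each 501Mel library and 1301, 1765 and 1369 in Hermes 3A. These are 0.093 and 0.106 CPM against 31.2, 43.2 and 45.5 CPM, with Hermes 3A libraries close together and all far above 501Mel. The fold change was 8.67 (SE 0.34, interval 7.87 to 9.46, adjusted p = 1.31e-05) and stayed between 8.53 and 8.81 under every alternative in which the gene was tested.

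CCL2, which attracts monocytes through CCR2, showed the reverse. It had 236 and 133 counts in 501Mel (5.48 and 3.51 CPM) and 0, 3 and 4 counts in Hermes 3A. Every 501Mel library was above 3 CPM, and no Hermes 3A library exceeded 0.133 CPM. The fold change was −6.01 (SE 0.78, interval −7.83 to −4.18, adjusted p = 0.00097), the most strongly lower value in Hermes 3A among the genes of the list that were tested. It was −5.39 without Hermes 3A replicate 1 and −6.74 without Hermes 3A replicate 3.

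The remaining CC genes were barely detected where they were listed, and CCL3 and CCL5 have no value. CCL7 and CCL8, which lie beside CCL2 on chromosome 17, had at most 1 and 2 counts in a Hermes 3A library and are not listed for 501Mel. CCL20 had 1 and 3 counts in 501Mel and 0, 2 and 0 in Hermes 3A, and CCL26 had 0 in both 501Mel libraries and 1, 2 and 0 in Hermes 3A.

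The IL6 family signals through the shared receptor chain gp130, the product of IL6ST. IL6, a hallmark of the senescent secretory phenotype, had 14 counts in each 501Mel library and 153, 61 and 29 in Hermes 3A. In CPM these were 0.325 and 0.370 against 3.67, 1.49 and 0.964, so the groups did not overlap and Hermes 3A replicate 1 was 3.81-fold above replicate 3. It was called (2.64, SE 0.71, interval 0.96 to 4.32, adjusted p = 0.0192), and without 501Mel replicate 1 or 501Mel replicate 2 the adjusted p was 0.0997 or 0.0763. Without Hermes 3A replicate 1 its fold change was 1.87 and the call was kept (adjusted p = 0.0144). Even in Hermes 3A its mean of 2.04 CPM was low beside CXCL8.

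LIF, which maintains stem cells and acts through LIFR and gp130, had 15 and 7 counts in 501Mel and 160, 131 and 80 in Hermes 3A. The Hermes 3A libraries at 2.66 to 3.84 CPM were all above the 501Mel libraries at 0.185 and 0.349 CPM. The difference of 3.65 (SE 0.50, interval 2.48 to 4.82, adjusted p = 0.00122) was called. IL11, the third of the family measured, overlapped between the lines, with 50 and 9 counts in 501Mel and 47, 41 and 10 in Hermes 3A. Its fold change of 0.31 (SE 0.77, interval −1.49 to 2.11, adjusted p = 0.759) was −0.39 without 501Mel replicate 2 and 1.85 without 501Mel replicate 1.

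The IL1 family members behaved differently from each other. IL1A and IL1B, the classical upstream cytokines of the secretory phenotype, were close to absent. IL1A had 0 and 1 counts in 501Mel and 4, 0 and 0 in Hermes 3A, and IL1B had 0 in both 501Mel libraries and 2, 3 and 3 in Hermes 3A. At this depth a count of 0 allows up to 0.0697 and 0.0792 CPM in the 501Mel libraries, and neither gene was tested.

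IL33, a nuclear cytokine released by damaged cells, was low but distinct. It had 7 and 2 counts in 501Mel and 38, 57 and 58 in Hermes 3A (0.912 to 1.93 CPM). No Hermes 3A library came near the 501Mel level, and the fold change was 3.70 (SE 0.66, interval 2.15 to 5.26, adjusted p = 0.00365), with 4.70 without 501Mel replicate 1. IL18, which is cut to its active form by caspase 1, had 4 and 3 counts in 501Mel and 7, 38 and 21 in Hermes 3A. It was called at 2.79 (SE 0.85, interval 0.80 to 4.78, adjusted p = 0.0299), although replicate 1 of Hermes 3A lay just above 501Mel, and the adjusted p was 0.132 without 501Mel replicate 1 and 0.130 without 501Mel replicate 2.

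IL10 and IL24, neighbours in the IL10 cluster of chromosome 1, moved in opposite directions. IL24, first found as a melanoma differentiation-associated gene, had 291 and 108 counts in 501Mel (6.76 and 2.85 CPM) and 3357, 1423 and 3001 in Hermes 3A (80.6, 34.8 and 99.8 CPM). The groups were clearly separated, with a fold change of 3.97 (SE 0.59, interval 2.59 to 5.35, adjusted p = 0.0017), and of 4.72 without 501Mel replicate 1. No other gene of the list had a higher mean CPM in Hermes 3A than IL24, at 71.7 ± 33.4 (SD, n = 3).

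IL10, an inhibitory cytokine that many melanomas make, had 86 and 55 counts in 501Mel and 13, 13 and 9 in Hermes 3A. The Hermes 3A libraries were nearly equal at 0.299 to 0.318 CPM, and both 501Mel libraries were above them at 2.00 and 1.45 CPM. In the fit this was −2.40 (SE 0.41, interval −3.37 to −1.43, adjusted p = 0.00317).

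CSF1, the growth factor of macrophages, had the largest fold change of the genes of the list that were tested. It had 5 and 1 counts in 501Mel and 1949, 1176 and 943 in Hermes 3A, or 0.116 and 0.0264 CPM against 46.8, 28.8 and 31.4 CPM. The fold change was 8.93 (SE 0.55, interval 7.64 to 10.2, adjusted p = 5.37e-05), with 10.3 without 501Mel replicate 1 and 8.32 without 501Mel replicate 2. The other colony-stimulating factors, CSF2 and CSF3, had 0 and at most 1 count in the 501Mel libraries and are not listed for Hermes 3A.

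IL16 and MIF are made by many cell types and led the list in 501Mel. IL16, whose product is a precursor cut to a ligand of CD4, had 1679 and 1657 counts in 501Mel (39.02 and 43.77 CPM) and 724, 1843 and 965 in Hermes 3A (17.4, 45.1 and 32.1 CPM). The 501Mel values lay inside the Hermes 3A range, and the fold change was −0.35 (SE 0.33, interval −1.13 to 0.44, adjusted p = 0.42). MIF, a cytokine that binds CD74, had 886 and 792 counts in 501Mel (20.6 and 20.9 CPM) and 1525, 1111 and 944 in Hermes 3A (36.6, 27.2 and 31.4 CPM). All Hermes 3A libraries were above 501Mel, and the fold change of 0.68 (SE 0.21, interval 0.20 to 1.17, adjusted p = 0.0288) passed the adjusted p but not the 2-fold limit.

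Overlap with other genes limits several of these values, because the sources used here do not say whether counting used the strand. Exons of IL16 share 35.98% of their bases with STARD5 on the other strand, which had 190 to 366 counts. Exons of MIF share 61.9% with MIF-AS1, which had 71 and 82 counts in 501Mel and 11 to 13 in Hermes 3A. They also share 32.2% with AP000350.4, which lies on the same strand, so the use of strand would not separate the reads. AP000350.4 had at most 5 counts in any library. Exons of IL6 share 20.7% with AC073072.1 on the other strand, which had at most 3 counts in any library. They also share 2.22% with STEAP1B, which had 840 and 578 counts in 501Mel and 166 to 236 in Hermes 3A. Further overlaps on the other strand touch CXCL16 and CXCL14. CXCL16 shares 3.04% with MED11, which had 425 and 350 counts in 501Mel and 586 to 800 in Hermes 3A. CXCL14 shares 3.95% with SLC25A48, which had 90 and 130 counts in 501Mel and 33 to 186 in Hermes 3A. IL12A shares 3.82% with IL12A-AS1, which had at most 4 counts in any library.

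The rest of the list was close to the limit. IL12A, a subunit of interleukins 12 and 35, had 4 and 3 counts in 501Mel and 47, 20 and 6 in Hermes 3A. Its call (2.87, SE 0.89, interval 0.77 to 4.97, adjusted p = 0.0326) was lost without 501Mel replicate 1 (adjusted p = 0.136) and without 501Mel replicate 2 (adjusted p = 0.136). IL15, which sustains natural killer cells, had 3 counts in each 501Mel library and 2, 8 and 20 in Hermes 3A and was not tested. IL32 had 4 and 10 counts against 2, 5 and 0, TSLP had 3 and 0 against 3, 4 and 8, and TNF had 0 in both 501Mel libraries and 1 count in all of Hermes 3A.

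Many genes of the list differed over 2-fold between replicates of a line. Among genes with a mean of at least 10 counts, the highest and lowest 501Mel library differed over 2-fold for 6 of 14 genes of the list (42.9%) and for 11.6% of 17000 genes. In Hermes 3A this held for 13 of 20 (65.0%) against 21.7% of 16151. With a mean of at least 50 counts it held for 2 of 7 and 6 of 11, against 6.89% and 13.0% of genes. These shares are a description, since many of the genes have few counts and the spread of low counts is wide.

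Replicate 1 was the highest library for 11 of 14 genes in 501Mel, where 55.1% of all genes were highest in replicate 1. In Hermes 3A it was the highest for 12 of 20, where 34.5% of all genes were. The 12 were IL6, IL11, LIF, IL12A, CSF1, CXCL1, CXCL2, CXCL3, CXCL8, CXCL14, CXCL16 and MIF, and they include the 4 of the CXC cluster that had a mean of at least 10 counts. By contrast, IL15, IL16, IL18, IL33, CXCL12 and CCL28 were lowest in Hermes 3A replicate 1. Fibroblast markers differed in both directions in that library. COL1A2 was lowest there (69.5 CPM against 180.1 and 187 CPM in replicates 2 and 3), whereas LUM (7.35 against 1.13 and 0.964 CPM) and THY1 (2.42 against 1.05 and 1.16 CPM) were highest there, and their part in these values was not tested.

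**Figure D4:**
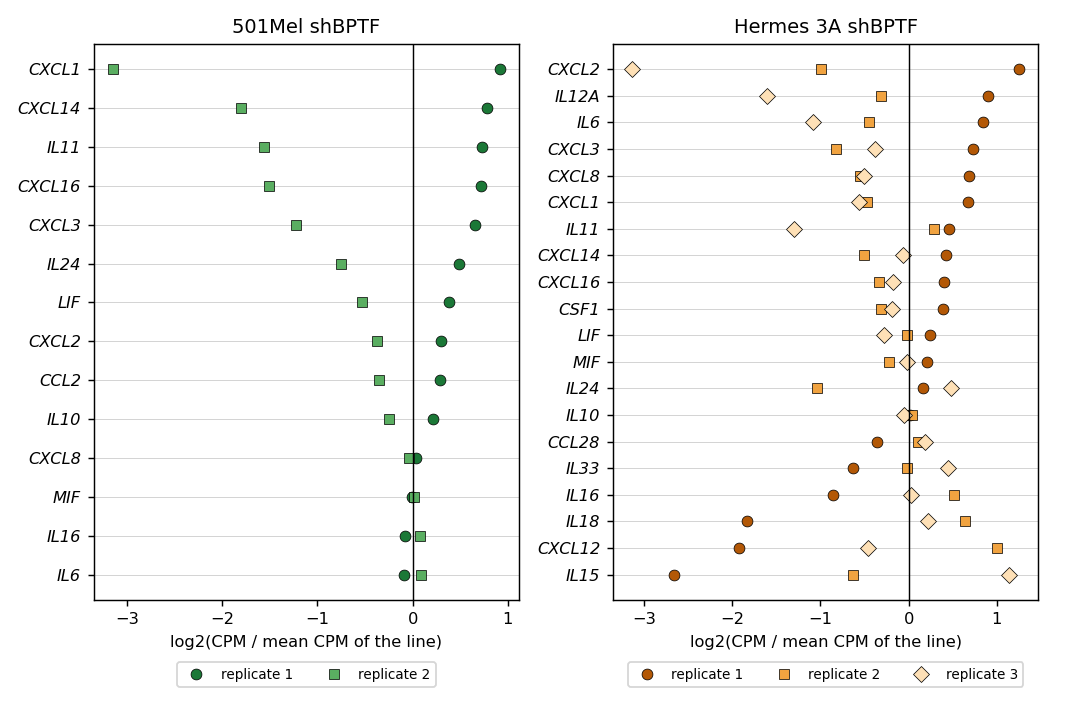
Log2 of the CPM of each library over the mean CPM of its line, for genes of the list with a mean of at least 10 counts, 14 in 501Mel (left) and 20 in Hermes 3A (right). Replicate 1 lies to the right of the other libraries for 11 of 14 and 12 of 20 genes, and CXCL2, IL15 and CXCL12 are spread the most in Hermes 3A.

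The levels in bulk RNA do not separate cell number from RNA per cell: fewer cells that make a cytokine and less of its RNA in each cell cannot be told apart. Leukocyte markers summed to 0.211 to 0.612 CPM over the 5 libraries, and PTPRC, the gene for CD45, had 2 counts in 501Mel replicate 1 and 0 in the other 4, so the defining leukocyte marker was at or near 0. Endothelial markers summed to 0.256 to 0.612 CPM and keratinocyte markers, mostly KRT10, to 32.7 to 48.0 CPM. These sums cover only markers listed for both lines: 4 of 5 leukocyte, 2 of 3 endothelial and 2 of 5 keratinocyte markers. The other markers of these lists were not measured in both lines and are not shown to be low. Of the 7 fibroblast markers, 2 were above 1 CPM in 501Mel and 3 in Hermes 3A, and their sums were 3.46 and 17.2 CPM against 80.1 to 190 CPM. Most of the Hermes 3A sum was COL1A2 (2893, 7359 and 5631 counts), whereas DCN had at most 7 counts in any library. The melanocyte sums were 12718 and 19661 CPM in 501Mel and 31651 to 32728 CPM in Hermes 3A. Within these lists the markers did not move together. COL1A1 (mean 3.63 against 0.68 CPM), COL3A1 (0.644 against 0.132 CPM), LUM (5.33 against 3.15 CPM) and DCN (0.134 against 0.043 CPM) had the higher mean in 501Mel, so the order of the fibroblast sums rests on COL1A2. DCT (1184 against 9.76 CPM) and MITF (778 against 665 CPM) also had the higher mean in 501Mel, against the melanocyte sum. The part of these cell markers in the cytokine differences was not tested.

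Receptors for these ligands were examined as a list of 36 genes. Of these, 17 could be tested and 12 were called, 7 higher in Hermes 3A and 5 higher in 501Mel. Over all genes tested, 34.3% were called, 17.1% higher in Hermes 3A and 17.2% higher in 501Mel. The receptor count is a description only, since 19 of the 36 could not be tested. A receptor gene at the limit in one line passed the filter only where it was high in the other. CCR1, a receptor for several CC chemokines, had 0 counts in both 501Mel libraries and 110, 160 and 103 in Hermes 3A, which is at least 89.3-fold higher with 3 counts over the pooled 501Mel libraries as the floor. CCR10, the receptor of CCL28, had 2 and 3 counts against 25, 30 and 39 and was called with its ligand in the same direction (3.80, SE 0.68, adjusted p = 0.00362). Among the others higher in Hermes 3A were OSMR (4.42), the oncostatin M receptor, IL1R1 (3.24), the signalling receptor of IL1, and IL18R1 (3.18), a call that was lost without 501Mel replicate 1 (4.53, adjusted p = 0.103) and without 501Mel replicate 2 (2.56, adjusted p = 0.198).

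Higher in 501Mel were LIFR (−3.79, SE 0.61, adjusted p = 0.00248), CD74 (−3.41), IL20RB (−2.002), CCR6 (−1.73) and IL6R (−1.72). LIFR had 337 and 77 counts in 501Mel and 16, 13 and 9 in Hermes 3A, opposite in direction to its ligand gene LIF, and the fold change was −2.53 without 501Mel replicate 1 and −4.44 without 501Mel replicate 2. IL6R, the ligand-binding chain for IL6, had 4346 and 3592 counts against 872, 1473 and 876, opposite to IL6, while the shared chain IL6ST was not called (−0.15, adjusted p = 0.576). CD74, which binds MIF, had 46 and 14 counts against 5, 1 and 1, and its call was lost without 501Mel replicate 1 (−2.46, adjusted p = 0.116), while the value was −4.47 without Hermes 3A replicate 1. The calls of CCR6 and IL20RB were lost without 501Mel replicate 2 (adjusted p = 0.143 and 0.0768), and that of CCR6 also without 501Mel replicate 1 (0.0771) or Hermes 3A replicate 2 (0.0672). CXCR1, CXCR2 and CXCR6, the receptors of CXCL8, CXCL1 and CXCL16, were not among the genes tested, nor were CXCR4 and CCR2.

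The genes that mature or restrain cytokines were a list of 16, of which 13 could be tested and 6 were called, each higher in Hermes 3A. These 6 were 46.2% of those tested, where 34.3% of all genes tested were called and 17.1% were called higher in Hermes 3A. That share is a description only. A gene at the limit in 501Mel, such as PYCARD or AIM2, passed the filter only because it was high in Hermes 3A. Of the 7 not called, ADAM17 (−0.60, adjusted p = 0.0122) and IL18BP (−1.13, adjusted p = 0.102) lay on the other side of 0, and the rest were above 0. GSDMD, whose product opens the pore through which IL1B and IL18 leave the cell, had 11 and 30 counts in 501Mel and 1671, 1503 and 847 in Hermes 3A (6.14, SE 0.50, adjusted p = 0.000149, with 5.52 without 501Mel replicate 1 and 7.17 without 501Mel replicate 2). PYCARD, the inflammasome adaptor, had 0 and 5 counts against 172, 171 and 128 (6.04, SE 0.88, adjusted p = 0.00156, with 5.01 without 501Mel replicate 1 and 10.4 without 501Mel replicate 2). CASP1, the protease that cuts IL1B and IL18, had 10 counts in each 501Mel library and 550, 332 and 217 in Hermes 3A (5.32, SE 0.50, adjusted p = 0.000263).

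DPP4, a protease that trims chemokines such as CXCL12, had 4 and 10 counts in 501Mel and 418, 52 and 30 in Hermes 3A and was called at 4.63 (adjusted p = 0.0243). Its fold change was 2.72 without Hermes 3A replicate 1, the high library, and 4.04 (adjusted p = 0.131) or 5.55 (adjusted p = 0.0723) without 501Mel replicate 1 or 2. AIM2, a DNA sensor of the inflammasome, was called at 3.81 on 2 and 1 counts against 15, 31 and 15. The sixth was CASP4 (1.93). NLRP1, an inflammasome sensor, was tested and not called (0.15, adjusted p = 0.783), and NLRP3 and CASP5 were not tested.

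**Figure D5:**
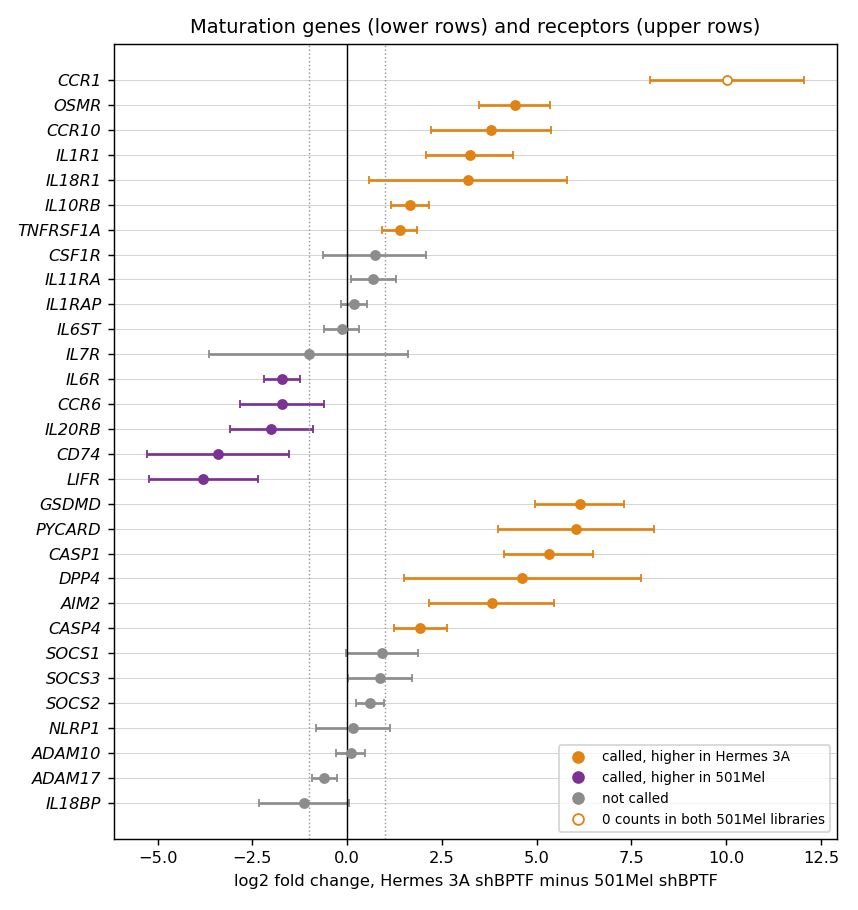
Fitted log2 fold change (Hermes 3A shBPTF minus 501Mel shBPTF) with 95% intervals for the 17 receptor genes tested (upper rows) and the 13 genes for maturation and restraint tested (lower rows). Receptors were called in both directions, 7 and 5, and the 6 maturation genes called were higher in Hermes 3A, where 34.3% of all genes tested were called. The open symbol is CCR1, whose fitted value depends on the prior count because 501Mel had 0 counts.

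Regulators of cytokine genes were a list of 30, of which 29 could be tested and 13 were called, 11 higher in Hermes 3A and 2 higher in 501Mel. These 13 were 44.8% of those tested, a share given as a description only. A gene at the limit in one line, such as MYD88 in 501Mel, passed the filter only through the other line. Over all genes tested, 34.3% were called, 17.1% higher in Hermes 3A and 17.2% higher in 501Mel. MYD88, the adaptor of IL1 and Toll-like receptors, had 9 and 13 counts in 501Mel and 4146, 3931 and 2876 in Hermes 3A (8.52, SE 0.26, adjusted p = 5.91e-06). FOSL1 (3.95) and JUN (2.36), which code for parts of AP-1, were called higher in Hermes 3A, and FOSL1 was 5.58 without 501Mel replicate 1 and 3.23 without 501Mel replicate 2. NFKBIZ (2.07) and NFKBIA (1.75), an NF-kB cofactor and an NF-kB inhibitor that are themselves NF-kB targets, were called in the same direction. Other genes of the list for NF-kB inhibitors lay on both sides of 0. TNIP1 was called higher in Hermes 3A (1.303, adjusted p = 0.000894), and NFKBIB was above 0 but not called (0.639, adjusted p = 0.0154). NFKBIE at −0.89 (adjusted p = 0.0075) and TNFAIP3 at −0.51 (adjusted p = 0.0652) were below 0 and not called.

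The NF-kB subunit genes NFKB1, NFKB2, RELA, RELB and REL were not called, with fold changes of −0.00, 0.40, 0.23, 0.94 and −0.44. RELB had an adjusted p of 0.0105 and was just under 2-fold. GATA4, a transcription factor linked to the senescent secretory phenotype, was higher in 501Mel, with 940 and 668 counts against 25, 9 and 1 (−5.96, SE 0.73, adjusted p = 0.000775), and −7.09 without Hermes 3A replicate 1. CHUK, the gene for IKK alpha, was the other one (−1.08), and without 501Mel replicate 1 it fell under the 2-fold limit at −0.83.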

How the data were processed

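Total RNA-seq libraries of 501Mel shBPTF cells (2) and Hermes 3A shBPTF cells (3) were prepared after depletion of ribosomal RNA and were normalized with duplex-specific nuclease, which lowers abundant transcripts, so levels are compressed relative to the RNA in the cells. The authors deposited raw read counts per Ensembl gene, 1 table per library, without normalization. The submitters' processing notes name CASAVA 1.8, TopHat 1.4.1, Bowtie 0.12.7 and hg19. The counting program, its annotation and its use of strand are not given in the sources used here.

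Symbols and transcript lengths were taken from GENCODE 29 (GRCh38) by Ensembl identifier, and promoter windows from RefSeq (GRCh38.p14), so no coordinate comes from the hg19 alignment. The 501Mel tables list 37259 genes and those of Hermes 3A list 34033, and the 31029 listed for both were used. Library totals of all listed genes gave CPM. Counts were filtered with filterByExpr, normalized by TMM and tested with the quasi-likelihood test of edgeR 4.0.16 in R 4.3.3 with Benjamini-Hochberg adjustment. Scripts were tested on simulated data. Replicates differed by more than sampling noise, with a chi-square per gene of 19.4 to 90.7, so each counted as 1 sample.

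All 39 genes are named. Of each other list, genes called with the largest absolute fold change are named, at most 5 in each direction, and further genes were named after their values were seen. The genes, lists and tests were chosen with earlier results of these data known. Alternatives were DESeq2 1.42.0 and its size factors, limma-voom (limma 3.58.1), library size alone, other filters, no fold limit, CXCL1 to CXCL3 summed, a replicate block and leaving out each library. Intervals of pooled count ratios and floors cover counting error only, whereas those of edgeR's fold changes include the spread between libraries.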

Additional observations from a re-analysis of the deposited data

How the results depend on the processing

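The 13 genes of the list called between the lines were 13 or 14 with DESeq2's size factors, library size alone, DESeq2, no filter, no fold limit, CXCL1 to CXCL3 summed, and, as an alternative chosen after seeing the data, genes unlisted in a line set to 0. They were 11 with limma-voom and 9 to 13 when 1 library was left out. CCL2, CCL28, CSF1, CXCL1, CXCL16, IL10, IL24, IL33 and LIF were called under every alternative in which they were tested. With at least 10 counts required in every library, only 7 genes of the list could be tested and 2 were called, receptors called went from 12 to 4 and maturation genes from 6 to 3, since that filter removes genes low in 1 line. Over all genes that filter gave 3875 calls against 6145. None of the 21 other chemokine genes passed the filter on low counts. That filter was shared by edgeR, DESeq2 and limma-voom, so none of these genes was tested or could be called in any of them. With no filter 1 was called (CCL13), with unlisted genes at 0 there was 1 (CXCL13), and leaving out libraries gave 0 to 1 (CCL13, without 501Mel replicate 1). Receptor calls ranged from 9 to 12, regulator calls from 11 to 15 and maturation calls from 5 to 7 when libraries were left out. Library size alone moved the median of all genes from −0.02 to −0.09.

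With a mean of at least 50 counts in place of 10, the genes over 2-fold apart between replicates were 2 and not 6 in 501Mel and 6 and not 13 in Hermes 3A. IL11 changed direction, to −0.39 without 501Mel replicate 2 and to −0.00064 without Hermes 3A replicate 1, in a range of −0.39 to 1.85. CXCL14 was called with DESeq2, with no filter and without 501Mel replicate 2.

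Replicates of the lines share the numbers 1 and 2, but nothing in the labels pairs them. Deviations of libraries with the same number correlated at 0.101 and 0.116. A fit with a replicate block called 12 genes of the list, 11 receptors, 11 regulators and 6 maturation genes. In that fit IL18 was lost (adjusted p = 0.0615), as was CCR6 among receptors (adjusted p = 0.0549), and no other chemokine gene was tested.

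Depth limits the genes under 10 counts, where absence and low expression look alike. With 2 and 3 libraries, leaving out 1 501Mel library leaves a lone sample assumed to vary like Hermes 3A.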

Other observations

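CXCL13, the B cell attractant that binds CXCR5, was singled out after its values were seen. Its gene is not listed for 501Mel and had 50, 481 and 135 counts in Hermes 3A, more than any other of the 21 chemokine genes outside the list. CCL13 had 5 and 21 counts in 501Mel and 0 in each Hermes 3A library. CCL17 had 4 counts in each 501Mel library and 0 in each Hermes 3A library, and CXCL9 had 6 and 3 against 0, 1 and 0. These 4 genes did not enter the main comparison, and all of them were picked for their values.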
